A study of Mus musculus with 5 samples.

Results

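The Hes and Hey genes encode basic helix-loop-helix repressors with an Orange domain, and several of them are the textbook direct targets of Notch signalling. A Notch receptor that meets a ligand on a neighbouring cell is cleaved, and its released intracellular part enters the nucleus, joins the DNA-binding protein RBPJ and a Mastermind protein, and switches on Hes and Hey genes, whose products repress further genes. In skin, Notch signalling is known for its part in epidermal differentiation and in the hair follicle and its dermal papilla. Trimethylation of lysine 27 of histone H3 (H3K27me3), placed by the Polycomb complex PRC2 and removed by demethylases such as Kdm6b (Jmjd3), is found over many CpG-rich promoters of developmental regulators in cells that do not use them.

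All 9 annotated genes named Hes1, Hes2, Hes3, Hes5, Hes6, Hes7, Hey1, Hey2 and Heyl were taken, by name, from 21728 protein-coding genes of GENCODE M21 (mm10) and not by a threshold on their H3K27me3 values. The data were 4 lists of H3K27me3 broad peaks from dermal fibroblasts of E18.5 mouse skin (shortly before birth) expanded in AmnioMAX medium, 2 from Kdm6b-cKO mice (replicates 3 and 4) and 2 from WT mice (replicates 7 and 9). In Kdm6b-cKO, floxed Kdm6b was deleted by a Cre under control of Dermo1 (Twist2), which is active in dermal fibroblasts, and WT cells kept Kdm6b. Per the labels all cells were sorted for GFP as a sign of the knockout, a statement made for WT as well. The labels do not say whether libraries of a genotype came from separate embryos, so p-values measure only the spread between these libraries, which may be technical. Read counts are not part of the lists, which leaves the depth of each peak unknown. A larger share of cells with the mark cannot be told apart from more of the mark per cell.

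The lists differed in size throughout the genome, with 44077 and 40565 peaks over 148.3 and 123.9 Mb in Kdm6b-cKO fibroblasts, against 29841 and 22597 peaks over 91.4 and 61.5 Mb in WT fibroblasts. Each result on the Hes and Hey genes has to be read beside that difference, and its part in them was not tested other than by the alternatives given with the values. None of 10 fibroblast marker promoters, Col1a1 and Pdgfra among them, had 500 bp or more covered in any library. Among 17 markers of other cell types that could be present, 9 and 9 were marked in Kdm6b-cKO fibroblasts and 6 and 6 in WT fibroblasts. These counts too stand beside the larger Kdm6b-cKO lists. The 3 endothelial markers Pecam1, Cdh5 and Tek were bare in all 4 libraries, and of 3 immune markers only Cd3e was marked. Absence of the mark is no measure of expression. The Kdm6b promoter was also unmarked in all 4, and peak lists of this mark cannot show the deletion itself.

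At their promoters the family formed 2 sets that both genotypes shared. A promoter was taken as the transcription start site (TSS) ± 3 kb and called marked when peaks covered at least 500 bp of it. Hes2, Hes3, Hes5, Hey1, Hey2 and Heyl were marked in all 4 libraries, whereas Hes1, Hes6 and Hes7 had no covered base in any of them. Of all protein-coding promoters, 28.8% were marked in at least 1 library and 15.2% in all 4. The mark was present in every library at 52.7% of the 6251 promoters marked at all. No Hes or Hey promoter gained its mark in the sense of being marked in the 2 Kdm6b-cKO libraries and unmarked in the 2 WT ones, which held for 14.9% of these. The map of peaks around each start site shows the same division.

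**Figure D1:**
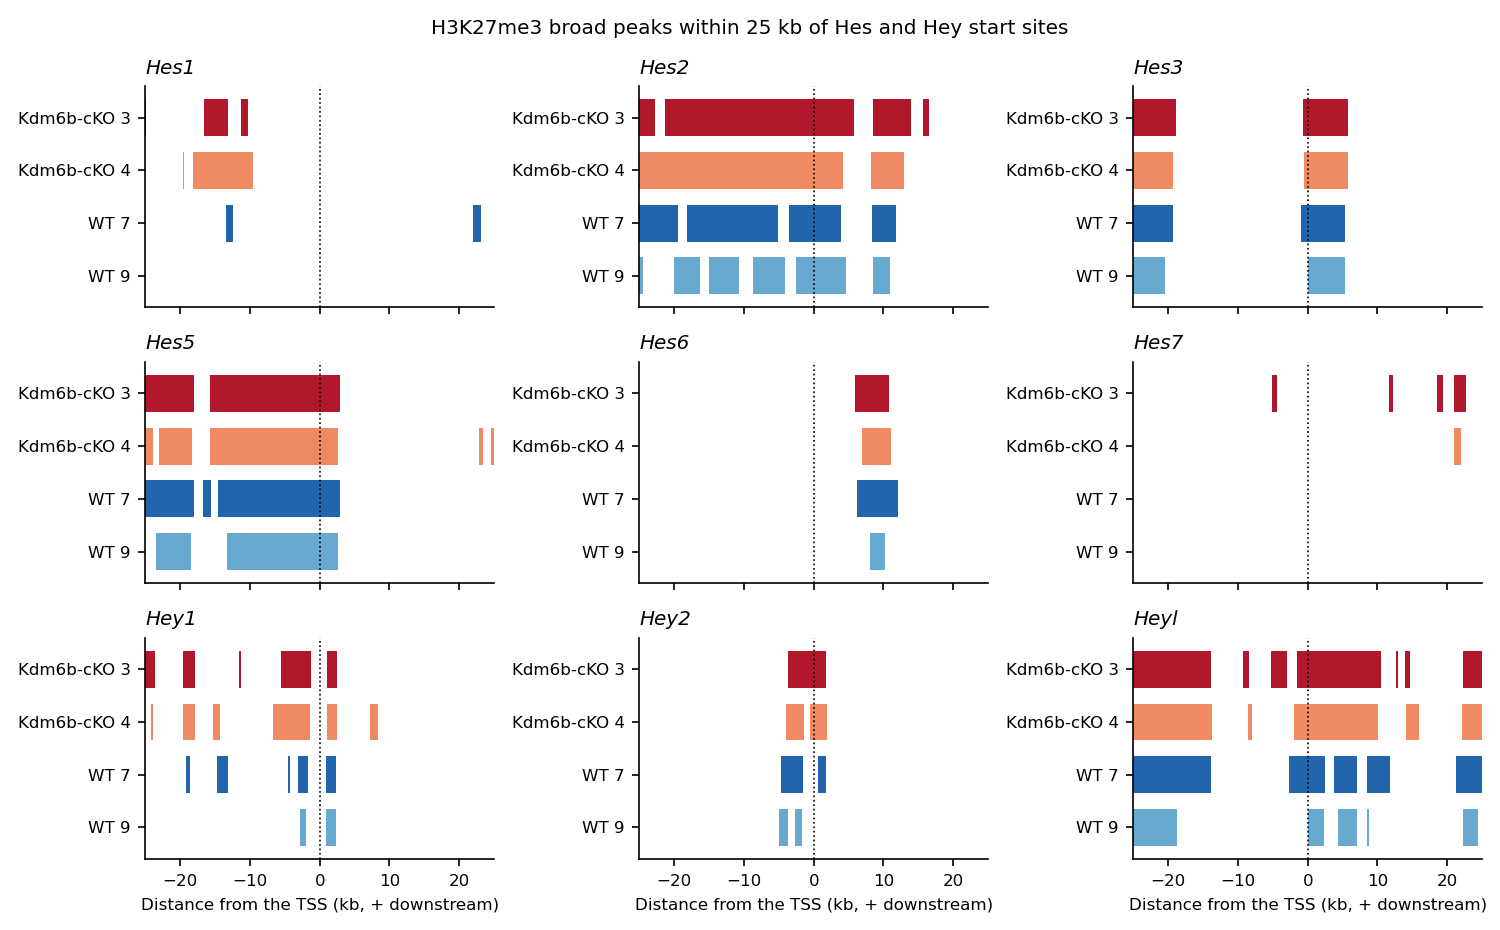
H3K27me3 broad peaks (bars) within 25 kb of the TSS of each Hes and Hey gene, drawn in the direction of transcription, with distance from the TSS in kb on the x axis and 1 row per library. Peaks lie over the TSS of Hes2, Hes3, Hes5 and Heyl in all 4 libraries and over that of Hey2 in both Kdm6b-cKO libraries, and no peak touches the TSS of Hes1, Hes6, Hes7 or Hey1.

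The unmarked promoters were not poor in CpG. Within 3 kb of the TSS, Hes1 held 54.0 CpG per kb, Hes7 45.7 and Hes6 32.8. The marked members ranged between 43.2 for Hey1 and 18.2 for Heyl, with 36.7 for Hes5, 32.8 for Hey2, 30.3 for Hes2 and 21.8 for Hes3. The median was 22.5 per kb over the 3292 promoters marked in all 4 libraries, 17.7 over the 15477 marked in none and 18.1 over all genes. Thus the most CpG-rich member of the family was bare and the least CpG-rich one was marked.

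RefSeq start-site windows (GRCm38.p6, 250 bases before and 50 bases after the start) were at hand for 4 of the 9 genes, Hes5, Hes6, Hes7 and Hey2. Printed are 3 of them, because they stand for the 3 states met in these data: Hes5 (chr4:154960673-154960972, plus strand) was covered over all 300 bases in every library, Hey2 (chr10:30842734-30843033, minus strand) over all 300 in both Kdm6b-cKO libraries and over none in either WT library, and Hes7 (chr11:69120203-69120502, plus strand) over none in any. Capitals mark the RBPJ core motif GTGGGAA or its reverse complement TTCCCAC.
Hes5: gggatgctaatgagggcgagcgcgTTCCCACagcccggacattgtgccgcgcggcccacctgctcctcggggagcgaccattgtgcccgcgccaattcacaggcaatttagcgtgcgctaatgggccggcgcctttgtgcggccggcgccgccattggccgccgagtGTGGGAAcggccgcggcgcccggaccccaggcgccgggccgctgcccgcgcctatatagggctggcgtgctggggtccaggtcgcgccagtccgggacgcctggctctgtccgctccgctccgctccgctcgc
Hey2: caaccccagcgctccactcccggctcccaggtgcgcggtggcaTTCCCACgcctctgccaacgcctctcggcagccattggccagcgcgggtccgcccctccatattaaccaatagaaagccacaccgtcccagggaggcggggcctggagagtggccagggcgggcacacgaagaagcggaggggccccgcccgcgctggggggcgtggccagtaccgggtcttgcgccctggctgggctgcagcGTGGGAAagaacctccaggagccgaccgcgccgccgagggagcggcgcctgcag
Hes7: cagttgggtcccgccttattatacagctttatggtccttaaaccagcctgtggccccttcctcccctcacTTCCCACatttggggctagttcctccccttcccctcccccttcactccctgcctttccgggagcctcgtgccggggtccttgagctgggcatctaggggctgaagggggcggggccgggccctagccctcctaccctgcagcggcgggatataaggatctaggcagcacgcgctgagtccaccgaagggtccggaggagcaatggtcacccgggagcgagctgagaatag
Hes5 and Hey2 each held 2 RBPJ cores, 1 on each strand, beginning 226 and 83 bases before the start in Hes5 and 207 and 4 bases before it in Hey2. Hes7 held 1 core, 180 bases before its start, and the 2 Hes6 windows held none. Among 32851 RefSeq windows of the same length, 6.38% held the core on either strand. A second motif, the N-box CACNAG bound by Hes proteins (searched with its reverse complement CTNGTG), was found once in Hes7, 116 bases before its start, 2 times in 1 of the 2 Hes6 windows, 237 bases before and 16 bases after the start, in neither Hes5 nor Hey2, and in 42.5% of all windows. The windows of Hes5, Hey2 and Hes7 held 41, 29 and 14 CpG, against a median of 7 over all windows. These are matches of letters and not measured binding sites. The share of all windows covered in the manner of Hey2 was not counted.

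Hes5, a repressor known from neural progenitors and a direct Notch target, carried a long domain at the gene in all 4 libraries. Peaks covered 97.6% and 94.2% of its promoter in Kdm6b-cKO fibroblasts, against 98.9% and 94.2% in WT fibroblasts. The groups overlapped, and the difference was −0.69 percentage points (95% interval −10.1 to 8.67, limma adjusted p = 0.959). A single peak ran over the start site and the whole gene (chr4:154960923-154962371, plus strand), and was 18.7 and 18.4 kb long in Kdm6b-cKO fibroblasts and 17.5 and 16.0 kb in WT fibroblasts. It lay mostly upstream, between 15.8 kb before and 2.86 kb after the start in Kdm6b-cKO replicate 3 and between 13.4 kb before and 2.65 kb after it in WT replicate 9. By −log10 q it stood at percentile 99.9 of its own list in both Kdm6b-cKO libraries and at percentiles 99.3 and 98.9 in WT fibroblasts. Its −log10 q was 19.9 and 17.4 in Kdm6b-cKO fibroblasts, against 10.8 and 8.99 in WT fibroblasts, and its fold over background by the authors' caller was 6.52 and 6.04 in Kdm6b-cKO fibroblasts, against 4.81 and 4.62 in WT fibroblasts. Neither value overlapped between genotypes, and both are averages over the peak that were not tested. The peaks over the starts of Hes3 and Heyl separated in the same way in both values, and that of Hes2 did in neither. How many peaks of the genome separate like this was not counted. Within 10 kb of the TSS the covered length came to 12.9 and 12.7 kb in Kdm6b-cKO fibroblasts, against 12.9 and 12.7 kb in WT fibroblasts. The peak filled the upstream 10 kb in every library, so this window could show only the downstream edge, which was alike in all 4. The upstream edge lay 15.8 and 15.8 kb before the start in Kdm6b-cKO fibroblasts, against 14.6 and 13.4 kb in WT fibroblasts. Neither that edge nor the peak length overlapped between genotypes, and neither was tested.

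Farther from Hes5 the genotypes parted. Within 25 kb, peaks covered 25.6 and 25.2 kb in Kdm6b-cKO fibroblasts and 25.6 and 21.1 kb in WT fibroblasts, a difference of 2.08 ± 1.85 kb (SE, adjusted p = 0.480) that turned to −0.20 kb without WT replicate 9. Within 50 kb they covered 46.5 and 46.5 kb in Kdm6b-cKO fibroblasts, against 27.5 and 21.1 kb in WT fibroblasts. There the groups lay well apart, and the difference of 22.2 ± 2.64 kb passed limma (adjusted p = 0.042), beside an increase at 8.84% of the 14574 genes tested at that width. It stayed between 18.97 and 25.4 kb when 1 library was left out, and passed then only without WT replicate 7 (adjusted p = 0.034). Without either Kdm6b-cKO library or WT replicate 9 no gene of the genome passed at that width. Within 100 kb the covered length came to 123.1 and 123.6 kb in Kdm6b-cKO fibroblasts and 76.1 and 59.6 kb in WT fibroblasts. Pank4, the only other gene with a start within 25 kb of that of Hes5, begins 3.2 kb downstream, so its promoter window shares bases with that of Hes5. Its covered share was 44.3% and 40.9% in Kdm6b-cKO fibroblasts and 45.6% and 40.9% in WT fibroblasts.

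Hes2, a less studied Hes repressor (chr4:152158867-152162469, plus strand), was as fully marked at its promoter, with 100% and 100% covered in Kdm6b-cKO fibroblasts and 100% and 92.4% in WT fibroblasts. A window that is covered over its whole length cannot show an increase, and 26.2% of the promoters tested were full in at least 1 library. The flank could show one. Within 25 kb, peaks covered 35.7 and 33.9 kb in Kdm6b-cKO fibroblasts, against 29.4 and 22.7 kb in WT fibroblasts. Both Kdm6b-cKO values lay above both WT values, and the difference of 8.71 ± 2.71 kb (95% interval 0.71 to 16.7) did not pass limma after adjustment over 11829 genes (adjusted p = 0.130). Without WT replicate 9 it was 5.36 kb. The promoter difference of 3.80 points rested on that library and was 0 without it, and 7.60 without WT replicate 7.

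The shape of the Hes2 domain differed as well as its extent. The peak over the TSS was 27.1 and 49.1 kb long in Kdm6b-cKO fibroblasts and 7.40 and 7.14 kb long in WT fibroblasts. In Kdm6b-cKO replicate 4 it ran without a break from 44.99 kb upstream to 4.15 kb downstream, whereas the same stretch held 2 peaks in Kdm6b-cKO replicate 3, 3 in WT replicate 7 and 5 in WT replicate 9. The start of Espn, which encodes an actin-bundling protein of hair cell stereocilia, lies 6.50 kb upstream of that of Hes2 within this stretch. Its promoter was covered over 100% and 100% in Kdm6b-cKO fibroblasts, against 73.3% and 77.0% in WT fibroblasts, and rose by 24.9 points (limma adjusted p = 0.033), beside 7.93% of the 6251 promoters tested that rose. That call passed in 4 of 12 alternatives, among those without 1 library only without WT replicate 7, and no promoter of the genome passed without WT replicate 9. On the downstream side, the promoter of Acot7, 19.3 kb from the Hes2 start, was unmarked at the 500 bp minimum in every library.

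Hes3, known from the early brain (chr4:152285972-152291662, minus strand), starts 132.8 kb from Hes2 and held a compact domain. Peaks covered 60.3% and 59.0% of its promoter in Kdm6b-cKO fibroblasts and 65.8% and 50.2% in WT fibroblasts. The Kdm6b-cKO values lay between the WT values, and the difference of 1.69 points (95% interval −22.8 to 26.2, limma adjusted p = 0.969) changed sign when WT replicate 9 was left out, to −6.12. The peak began close to the start site, between 0.946 and 0.009 kb before it, and ran over the gene for 6.35 and 6.25 kb in Kdm6b-cKO fibroblasts and 6.28 and 5.30 kb in WT fibroblasts. It covered 100% and 100% of the gene in Kdm6b-cKO fibroblasts, against 93.8% and 92.9% in WT fibroblasts. Within 25 kb the covered length came to 12.4 and 11.9 kb in Kdm6b-cKO fibroblasts and 12.0 and 9.86 kb in WT fibroblasts, a difference of 1.22 ± 1.06 kb (adjusted p = 0.469) that was 0.152 kb without WT replicate 9 and 2.29 kb without WT replicate 7. The total within 25 kb includes a second, separate peak upstream of Hes3. That peak was 8.43 and 7.94 kb long in Kdm6b-cKO fibroblasts and 7.84 and 6.835 kb long in WT fibroblasts, and it reached past the edge of the window. Its near end lay 18.9 and 19.4 kb from the Hes3 start in Kdm6b-cKO fibroblasts and 19.3 and 20.4 kb from it in WT fibroblasts. Promoters of the Hes3 neighbours Icmt and Gpr153 were bare in all 4 libraries.

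**Figure D2:**
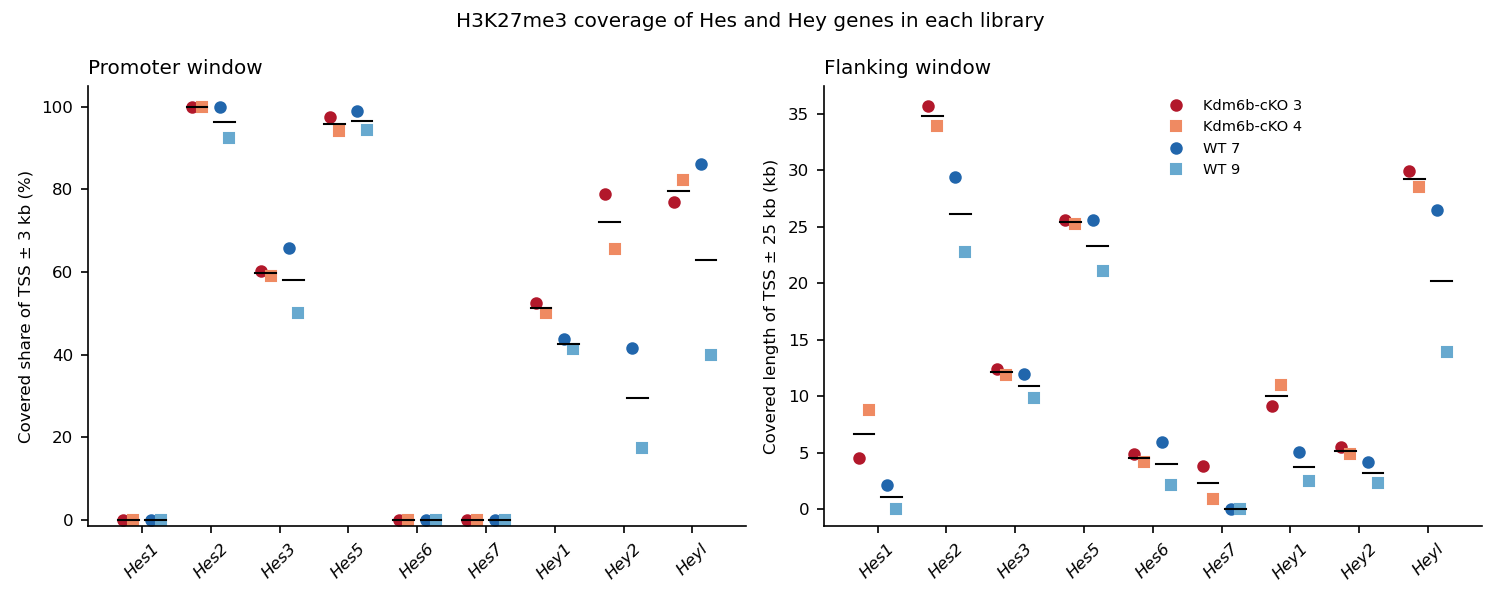
Covered share of the TSS ± 3 kb in percent (left) and covered length of the TSS ± 25 kb in kb (right) for the 9 genes, with 1 point per library, Kdm6b-cKO left of WT for each gene, and the mean of each genotype as a line (n = 2 each). Hes1, Hes6 and Hes7 sit at 0 in the promoter window, Hes2 and Hes5 at 92.4% or more, and Hey2 shows the widest gap between genotype means there.

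The 3 Hey genes, best known from the heart and blood vessels, were partly covered and so could move in both directions. Hey2 (chr10:30832359-30842801, minus strand), which has roles in the developing heart and arteries, had a promoter covered over 78.8% and 65.6% in Kdm6b-cKO fibroblasts, against 41.7% and 17.4% in WT fibroblasts. The groups did not overlap, and the difference of 42.7 ± 12.2 points was the widest of the family in this window. With an equal number of strongest peaks in each library it was 23.0 points, and within 5 kb it was 19.4 points, where Heyl (30.1) and Hey1 (23.7) differed more. The difference within 3 kb did not pass limma (95% interval −0.40 to 85.7, adjusted p = 0.192). In 88.1% of the promoters tested the difference was smaller.

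At the start site of Hey2 itself, both Kdm6b-cKO libraries had a peak and neither WT library did. The share of all genes with this split at the start site was not counted, so it cannot be called particular to Hey2. In the 3 kb window, 14.9% of 6251 promoters were marked in both Kdm6b-cKO libraries and in neither WT library. The peak over the Hey2 start was 5.49 kb long in Kdm6b-cKO replicate 3, from 3.76 kb before to 1.73 kb after the start. It was 2.35 kb long in replicate 4, where a second peak of 2.52 kb lay upstream. In WT replicate 7 a peak of 3.12 kb upstream and one of 1.07 kb downstream left the start bare, and in WT replicate 9 the nearest peak ended 1.66 kb upstream. Within 1 kb of the TSS, 2 and 1.48 kb of the 2 kb window were covered in Kdm6b-cKO fibroblasts, against 0.348 and 0 kb in WT fibroblasts. This narrower window gave a difference of 78.3 ± 14.4 points (limma adjusted p = 0.141), whereas 496 of the 4591 genes tested at that width were called higher. At that width Hey2 reached the 500 bp minimum only in Kdm6b-cKO fibroblasts, so it entered the test only through them and could not have been lower. The peak over the TSS stood at percentiles 92.8 and 39.0 by −log10 q in the Kdm6b-cKO lists, so the one in replicate 4 was weaker than most peaks of its list. Nothing else was covered out to 100 kb, where the totals were still 5.49 and 4.87 kb in Kdm6b-cKO fibroblasts and 4.19 and 2.28 kb in WT fibroblasts, a difference of 1.94 ± 0.99 kb at 25 kb (adjusted p = 0.266) that was 0.992 kb without WT replicate 9.

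Hey1 (chr3:8663359-8667256, minus strand), a Notch target in endothelium and many other tissues, showed another form. Its start site was bare in all 4 libraries, with the nearest peak 1.06 and 1.01 kb downstream in Kdm6b-cKO fibroblasts and 0.952 and 0.880 kb downstream in WT fibroblasts. A second peak flanked it upstream, beginning 1.31 and 1.41 kb from the start in Kdm6b-cKO fibroblasts and 1.74 and 1.904 kb from it in WT fibroblasts. The downstream peak was of like length in all libraries, 1.47 and 1.41 kb in Kdm6b-cKO fibroblasts and 1.37 and 1.52 kb in WT fibroblasts. The upstream peak was 4.20 and 5.30 kb long in Kdm6b-cKO fibroblasts, against 1.31 and 0.963 kb in WT fibroblasts. The difference between genotypes at Hey1 thus lay on the upstream side.

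The promoter of Hey1 was covered over 52.5% and 50.02% in Kdm6b-cKO fibroblasts and 43.9% and 41.4% in WT fibroblasts, a difference of 8.67 ± 1.72 points (95% interval 2.63 to 14.7). This did not pass after adjustment (limma adjusted p = 0.122). With only peaks of −log10 q of at least 3 the difference was 27.2 points and passed limma (adjusted p = 0.028, beside an increase at 7.51% of the 5434 promoters tested), and with the strongest peaks up to an equal covered length in each library it was −20.4 points. Within 25 kb, peaks covered 9.09 and 10.9 kb in Kdm6b-cKO fibroblasts, against 5.06 and 2.48 kb in WT fibroblasts. The difference of 6.25 ± 1.37 kb (95% interval 2.21 to 10.3) had the smallest adjusted p of the family in this window (0.080), and it was −1.22 kb with equal covered length. Within 100 kb the covered length came to 23.3 and 18.97 kb in Kdm6b-cKO fibroblasts and 5.45 and 2.48 kb in WT fibroblasts.

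Heyl (chr4:123233556-123249875, plus strand), a Hey repressor expressed in vascular smooth muscle, had a promoter covered over 76.9% and 82.2% in Kdm6b-cKO fibroblasts, against 86.1% and 39.8% in WT fibroblasts. WT replicate 7 was the highest library and WT replicate 9 the lowest, so the groups overlapped, and the difference of 16.6 ± 20.6 points (limma adjusted p = 0.654) was −6.54 without WT replicate 9. The peak over the start was 12.0 and 12.0 kb long in Kdm6b-cKO fibroblasts and 5.17 and 2.39 kb in WT fibroblasts, where separate peaks of 3.27 and 2.80 kb followed it within the gene. Peaks covered 69.6% and 73.2% of the gene in Kdm6b-cKO fibroblasts, against 55.3% and 33.3% in WT fibroblasts. A long domain upstream, of 68.8 and 52.6 kb in Kdm6b-cKO fibroblasts and 51.9 and 47.2 kb in WT fibroblasts, ended 13.9 and 13.7 kb before the start in Kdm6b-cKO fibroblasts and 13.9 and 18.7 kb before it in WT fibroblasts. Within 25 kb the covered length came to 29.9 and 28.5 kb in Kdm6b-cKO fibroblasts, against 26.5 and 13.9 kb in WT fibroblasts, a difference of 9.04 ± 4.84 kb (adjusted p = 0.283). Without WT replicate 7 it was 15.3 kb and passed limma (adjusted p = 0.048, beside an increase at 5.47% of genes), and without WT replicate 9 it was 2.76 kb.

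The 3 genes with bare promoters differed in how far the nearest peak lay. Hes6 (chr1:91411483-91414038, minus strand), whose product opposes Hes1, had 1 peak within 25 kb in each library, beginning 5.87 and 6.90 kb downstream in Kdm6b-cKO fibroblasts and 6.21 and 8.11 kb downstream in WT fibroblasts. It was 4.89 and 4.17 kb long in Kdm6b-cKO fibroblasts and 5.94 and 2.13 kb in WT fibroblasts, so the groups overlapped (difference 0.49 ± 1.60 kb, limma adjusted p = 0.827), and the difference was −1.41 kb without WT replicate 9.

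Hes7 (chr11:69120404-69124055, plus strand), an oscillator of the somite segmentation clock, had 3.84 and 0.874 kb covered within 25 kb in Kdm6b-cKO fibroblasts and no covered base in WT fibroblasts. It entered the test only through Kdm6b-cKO, and the difference of 2.36 ± 1.29 kb did not pass (adjusted p = 0.292). It was 0.874 kb without Kdm6b-cKO replicate 3 and 3.84 kb without Kdm6b-cKO replicate 4. In Kdm6b-cKO replicate 3 the nearest peak lay 4.43 kb upstream. In Kdm6b-cKO replicate 4 it lay 21.1 kb downstream, and in WT fibroblasts 30.9 and 30.4 kb downstream. The promoters of its close neighbours 9130213A22Rik and Aloxe3 were bare in every library as well.

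Hes1 (chr16:30064384-30067796, plus strand), the best known Notch target and itself an oscillating repressor, had its nearest peak 10.4 and 9.64 kb upstream in Kdm6b-cKO fibroblasts, 12.4 kb upstream in WT replicate 7 and 41.6 kb downstream in WT replicate 9. Within 25 kb the covered length came to 4.51 and 8.81 kb in Kdm6b-cKO fibroblasts, against 2.11 and 0 kb in WT fibroblasts. The groups did not overlap, and the difference of 5.60 ± 1.93 kb had an adjusted p of 0.151. It was 3.46 kb without Kdm6b-cKO replicate 4. With only peaks of −log10 q of at least 3 it was 1.23 kb, as it was with an equal number of strongest peaks in each library. The gap in kb grew with distance, to 35.3 and 36.7 kb in Kdm6b-cKO fibroblasts and 13.2 and 4.45 kb in WT fibroblasts within 100 kb. Covered length can only add up as a window widens, and for no member does a value over all genes stand beside its 100 kb total. The 5 kb on either side of the Hes1 start stayed uncovered in all 4 libraries.

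**Figure D3:**
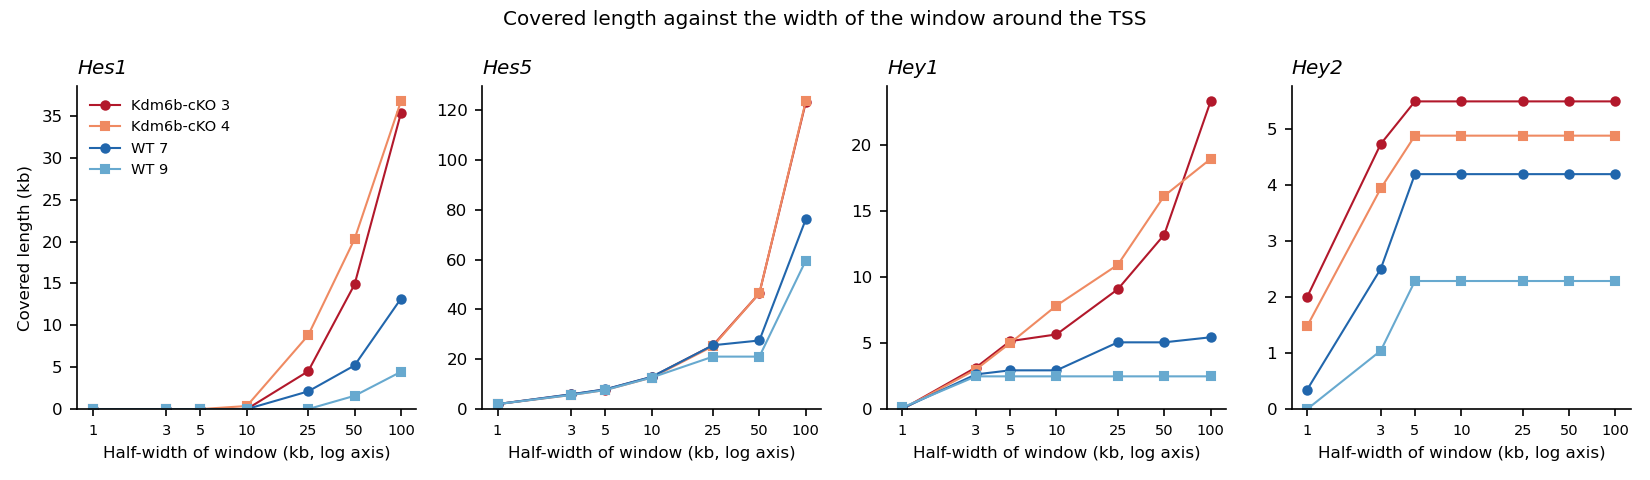
Covered length in kb against the half-width of the window around the TSS (log axis) for Hes1, Hes5, Hey1 and Hey2, 1 line per library. The lines of Hes5 coincide up to 10 kb and separate by 50 kb, those of Hes1 leave 0 between 5 and 25 kb in Kdm6b-cKO fibroblasts, and those of Hey2 are flat from 5 kb on.

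Counted over the family, the tests made no call in either window. At the promoter 0 of 6 members tested passed limma at an adjusted p under 0.05 in either direction, against 7.93% of promoters called higher and 0.0960% called lower in Kdm6b-cKO fibroblasts, and 1 member had an unadjusted p under 0.05, against 25.6% higher and 0.704% lower. Hes1, Hes6 and Hes7 had too little coverage to be tested there. Within 25 kb 0 of 9 passed, against 7.69% called higher and 0.00% called lower, and 2 members had an unadjusted p under 0.05, against 33.8% higher and 0.144% lower. The genotypes did not overlap, with Kdm6b-cKO higher, for 2 of 6 members at the promoter, against 49.0% of promoters tested, and for 6 of 9 within 25 kb, against 65.3% of genes tested. Hes7 is among these 6 and could not have been lower, because it entered the test only through Kdm6b-cKO. No member had both Kdm6b-cKO values below both WT values, against 2.42% and 1.67%. With 2 libraries against 2, an exact permutation test has 6 arrangements and cannot give a two-sided p below 0.33.

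The median difference was 6.23 points over the 6 tested promoters, against 11.7 points over all 6251, and 2.36 kb over the 9 genes within 25 kb, against 2.41 kb over all 11829. Within 25 kb the difference was positive for 9 of 9 members, where the lower quartile over all genes tested was also positive, at 0.833 kb. For Hes7, bare in WT fibroblasts, it could only be positive. After each library was centred on its own mean over genes (a shift of 4.06 kb) the difference was negative for Hes3, Hes5, Hes6, Hes7 and Hey2. At the promoter it was positive for 5 of 6, and after centring (a shift of 17.2 points) positive only for Hey2.

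**Figure D4:**
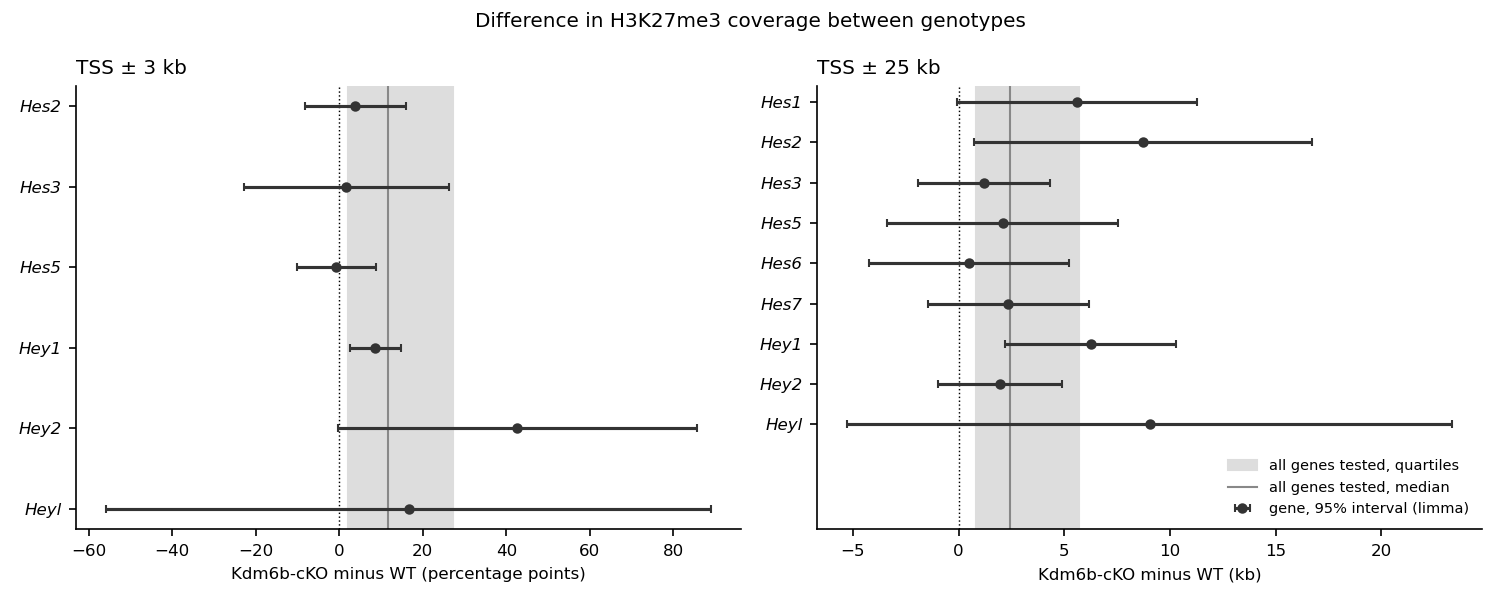
Difference in covered share (left, percentage points) and covered length (right, kb) between Kdm6b-cKO and WT for each Hes and Hey gene tested, with 95% intervals from limma; the grey band spans the quartiles and the grey line the median of all genes tested. Hey2 at the promoter and Hes2, Hey1 and Heyl within 25 kb lie above the band, Hes3 and Hes5 at the promoter and Hes6 within 25 kb lie below it, and every interval reaches into it.

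Ordered by covered length within 25 kb, the genes stood in a similar order in both genotypes. In Kdm6b-cKO the means ran 34.8 kb for Hes2, 29.2 for Heyl, 25.4 for Hes5, 12.1 for Hes3, 10.0 for Hey1, 6.66 for Hes1, 5.18 for Hey2, 4.53 for Hes6 and 2.36 for Hes7. The values of Hes1 overlapped with those of Hey2 and Hes6, and Hey2 and Hes6 with each other, while the other neighbours in the order did not overlap. In WT the means ran 26.1 kb for Hes2, 23.3 for Hes5, 20.2 for Heyl, 10.9 for Hes3, 4.03 for Hes6, 3.77 for Hey1, 3.24 for Hey2, 1.06 for Hes1 and 0 for Hes7. There Hes2, Hes5 and Heyl could not be separated by their 2 values each, nor could Hes6, Hey1 and Hey2, and both Hes1 and Hes7 were at 0 in WT replicate 9.

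Genes elsewhere in the genome with the most similar 4 values within 25 kb (smallest Euclidean distance, at most 11828 genes compared) were found for each member. Pde8b lay nearest to Hey2, with 5.32 and 5.25 kb in Kdm6b-cKO fibroblasts and 4.28 and 2.304 kb in WT fibroblasts, at a distance of 0.419 kb. Rasl10b lay nearest to Hes5, with 25.8 and 25.5 kb in Kdm6b-cKO fibroblasts and 24.96 and 21.2 kb in WT fibroblasts, at 0.745 kb. The others were Rplp1 for Hes1, Igfbp4 for Hes2, Med31 for Hes3, Trpc1 for Hes6, Rps6kb2 for Hes7, Nlrp3 for Hey1 and Pla2g4e for Heyl, at distances between 0.0624 and 1.82 kb. Each distance rests on 4 libraries and is a description.

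The rest of the pathway was described with a list of 41 genes. Of their promoters, 14 were marked in all 4 libraries, against 15.2% of all protein-coding promoters, and 24 were unmarked in every library. At the promoter 1 of 17 tested rose in Kdm6b-cKO fibroblasts and 0 fell, against 7.93% and 0.0960% of all promoters tested. Within 25 kb 5 of 29 rose and 0 fell, against 7.69% and 0.00% of all genes tested, and the median difference was 2.57 kb, against 2.41 kb over all genes. Of 7 ligands, 6 were marked in all 4 libraries, Jag1 being the exception. So were 2 of 4 receptors, 2 of 14 genes of receptor modification and cleavage and 3 of 13 intracellular and nuclear members. Of the complex that acts on Hes and Hey genes, named after its values were seen, Rbpj, Maml1 and Maml2 had bare promoters in all 4 libraries. The promoter of Maml3 was covered over 33.9% and 6.93% in Kdm6b-cKO fibroblasts, against 22.4% and 8.82% in WT fibroblasts.

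Among the ligands, Dll4, which acts in blood vessels, had 24.3 and 24.4 kb covered within 25 kb in Kdm6b-cKO fibroblasts and 15.7 and 13.5 kb in WT fibroblasts (limma adjusted p = 0.038). Dlk1, a non-canonical ligand and inhibitor of fat cell differentiation, had 12.7 and 12.8 kb in Kdm6b-cKO fibroblasts and 5.29 and 4.26 kb in WT fibroblasts (adjusted p = 0.035), and was the one pathway gene whose promoter rose (79.4% in Kdm6b-cKO fibroblasts and 47.6% in WT fibroblasts on average, adjusted p = 0.018). The Dlk1 promoter difference was positive in all 12 alternatives but passed in only 5 of them, and it was 0.55 points within 1 kb. Jag2 had 28.0 and 28.6 kb in Kdm6b-cKO fibroblasts and 15.2 and 6.52 kb in WT fibroblasts without passing (adjusted p = 0.069). Among the receptors, Notch4, known from endothelium, had 27.9 and 28.8 kb in Kdm6b-cKO fibroblasts, against 7.25 and 2.51 kb in WT fibroblasts (adjusted p = 0.032). Its difference of 23.5 kb was the largest of the list. Notch3 had 9.42 and 9.81 kb in Kdm6b-cKO fibroblasts and 7.26 and 5.20 kb in WT fibroblasts (adjusted p = 0.123), and Notch1, bare at its promoter, 2.82 and 2.66 kb in Kdm6b-cKO fibroblasts and 0.346 and 0 kb in WT fibroblasts (adjusted p = 0.097). Notch1 reached the 500 bp minimum only in Kdm6b-cKO fibroblasts, so it entered the test only through them and could not have been lower.

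Fringe enzymes add sugars to Notch receptors. Lfng rose within 25 kb, with 10.5 and 9.57 kb in Kdm6b-cKO fibroblasts and 2.11 and 0 kb in WT fibroblasts (adjusted p = 0.042), and Mfng had 18.98 and 27.3 kb in Kdm6b-cKO fibroblasts and 5.67 and 3.09 kb in WT fibroblasts (adjusted p = 0.063). Neurl1a, a ubiquitin ligase of ligands, had 22.8 and 17.7 kb in Kdm6b-cKO fibroblasts and 6.69 and 2.64 kb in WT fibroblasts (adjusted p = 0.057). Among the intracellular members, Dtx1, a ubiquitin ligase that binds Notch, had 39.3 and 36.3 kb in Kdm6b-cKO fibroblasts, against 23.2 and 17.5 kb in WT fibroblasts, just under the threshold at an adjusted p of 0.0498. Rbpjl, a relative of Rbpj, had 26.9 and 22.3 kb in Kdm6b-cKO fibroblasts and 14.5 and 11.1 kb in WT fibroblasts (adjusted p = 0.069). Nrarp, a feedback inhibitor, and Helt, a further bHLH-Orange repressor, had promoters covered over 100% in all 4 libraries and differences of 4.24 kb (adjusted p = 0.178) and 1.31 kb (adjusted p = 0.493). The 5 differences within 25 kb that passed were positive in all 11 alternatives, but passed in only 5 (Notch4), 4 (Dll4), 3 (Dtx1, Lfng) and 1 (Dlk1) of them, and no gene of the genome passed in this window without Kdm6b-cKO replicate 3, Kdm6b-cKO replicate 4 or WT replicate 9. Set beside these, the largest difference within 25 kb in the Hes and Hey family was the 9.04 kb of Heyl.

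**Figure D5:**
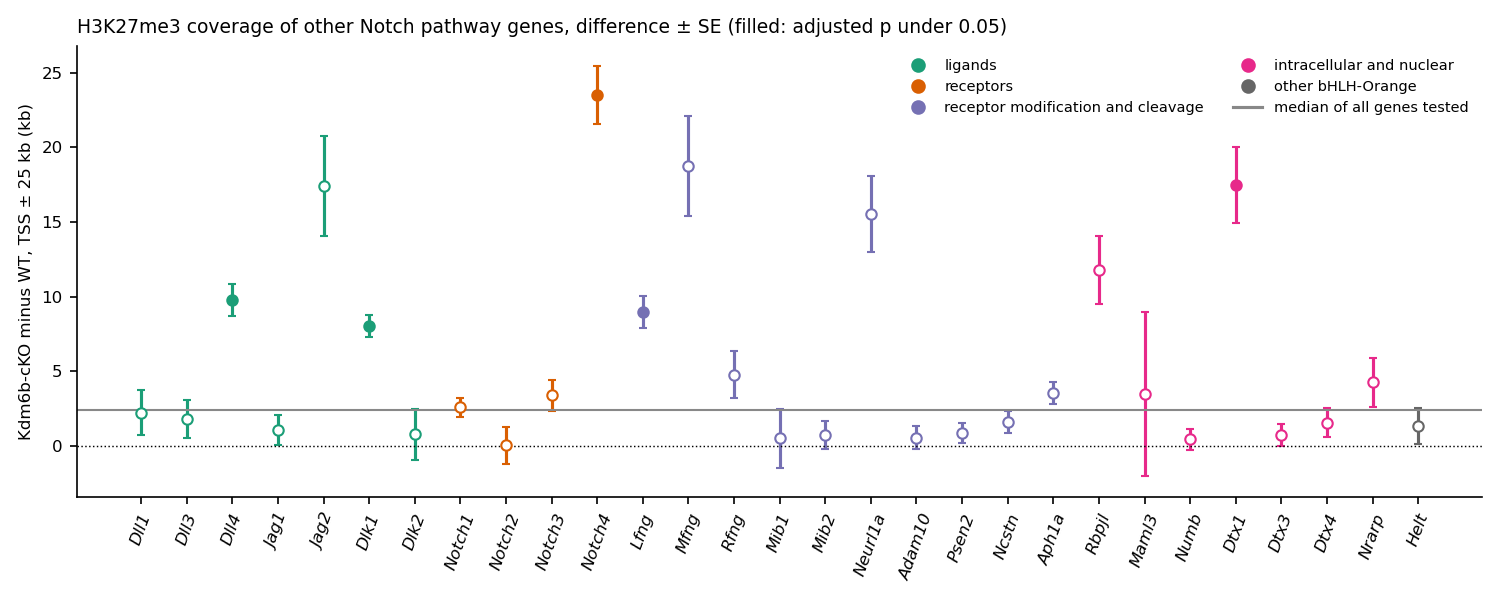
Difference in covered length within 25 kb of the TSS between Kdm6b-cKO and WT (kb, ± SE from limma) for the 29 other Notch pathway genes tested, coloured by role and filled where the adjusted p was under 0.05. Dll4, Dlk1, Notch4, Lfng and Dtx1 are filled and all lie above the median of all genes tested.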

How the data were processed

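H3K27me3 ChIP-seq of 2 Kdm6b-cKO and 2 WT libraries was used, grouped by their titles. Tools named in the submitters' processing notes are MACS2 2.2.7.1, Bowtie2 2.3.5.1, deepTools 3.5.1, SAMtools 1.9 and bcl2fastq, with the build mm10. Per the study's methods, libraries were subsampled to a like read number and broad peaks called in each library at q 0.01, which evens out depth and leaves it unknown per peak. Use of the input in calling is not given in the sources used here, and the input was not analysed here. The deposited lists give peak positions and, as averages over each broad region, a score, a fold ratio over background, −log10 p and −log10 q by the authors' caller. No deposited value is a count.

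Covered length was computed for each gene's TSS ± 3 kb and ± 25 kb (GENCODE M21, 5-prime end of the gene, chromosomes 1 to 19 and X) with Python 3.11.15, numpy 2.4.6 and pandas 2.3.3. Genes with at least 500 bp covered in at least 1 library entered limma 3.58.1 (R 4.3.3, lmFit and eBayes), with Benjamini-Hochberg adjustment over all genes tested and a threshold of 0.05. Covered shares are bounded at 0% and 100%, which limits the fit. The functions were tested on simulated data. Alternatives covered peak strength, equal peak number, equal covered length, no filter, centring, other window widths, other start sites, other minimums for a marked promoter and leaving out each library. Named genes were all members, pathway genes that passed limma or were among the 3 largest differences of their role, each member's nearest pattern and neighbours with a TSS within 25 kb. Jag1, Rbpj, the Maml genes and genes farther away than 25 kb were picked after their values were seen. Members and lists were chosen with earlier results of these data known. Sequences were read from RefSeq tables (GRCm38.p6). Figures used matplotlib 3.10.9.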

Additional observations from a re-analysis of the deposited data

How the results depend on the processing

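No paired analysis was possible because the genotypes share no replicate number. Of 107 values of the Hes and Hey genes under other settings, 89 kept their direction and their side of the threshold, 3 became 0 (Hes2 within 1 kb and at the most covered transcript start, Hes5 within 1 kb), 2 passed the threshold only there and 13 changed sign. The cause of these changes was not tested. Members passed limma (1 each) at the promoter with peaks of −log10 q of at least 3 (Hey1, 27.2 points) and within 50 kb (Hes5). Equal covered length reversed Hey1 to −20.4 points at the promoter and −1.22 kb within 25 kb, and Hes5 to −1.85 kb within 25 kb. None of these reversed differences passed limma. Centring reversed Hes2, Hes3, Hey1 and Heyl at the promoter to −13.4, −15.5, −8.51 and −0.60 points, and Hes3, Hes5, Hes6, Hes7 and Hey2 within 25 kb to −2.83, −1.97, −3.56, −1.70 and −2.11 kb. Within 10 kb, Hes5 was −0.0415 kb. With equal covered length, 5 members were marked in all 4 libraries.

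Over all genes at the promoter, calls higher and lower in Kdm6b-cKO numbered 496 and 6, against 133 and 78 with equal covered length and 151 and 1 with no filter. Calls lower were 16 with equal peak number, 58 after centring, 1 within 5 kb and 10 with the most covered transcript start. Within 25 kb, 910 and 0 became 277 higher with −log10 q of at least 3, 354 and 1 with equal peak number, 68 and 39 with equal covered length, 178 and 3 with no filter, 1430 and 407 after centring, and 404 and 1 within 10 kb.

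Leaving out 1 library kept direction and call for 52 of 60 member values, and Hes2 at the promoter became 0 without WT replicate 9. The lone library left is assumed to vary like the other genotype. Genes called higher ranged between 0 and 1419 and lower between 0 and 70 at the promoter, and higher between 0 and 647 within 25 kb, where 0 to 1 members passed (Heyl, without WT replicate 7). Promoter differences ranged between −3.04 and 1.66 points for Hes5, −6.12 and 9.50 for Hes3 and −6.54 and 39.7 for Heyl. Within 25 kb they ranged between −0.20 and 4.36 kb for Hes5 and −1.41 and 2.40 kb for Hes6. The lowest of each of these arose without WT replicate 9. An added check, chosen after seeing the data, left out each library for Hes5 within 50 kb (18.97 to 25.4 kb). Peak lists give no depth, so a bare stretch means no peak was called, not that the mark was absent.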

Other observations

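Downstream of Hes5, beyond the 25 kb window, lay a stretch that takes in much of Plch2 and reaches past the Plch2 start. Plch2 encodes a phospholipase C and runs toward Hes5, between 95.9 and 22.2 kb downstream of the Hes5 start. The stretch was chosen after its peaks were seen, so its values are a description. Between 35 and 105 kb downstream of the Hes5 start, peaks covered 64.6 and 62.6 kb in Kdm6b-cKO fibroblasts, against 35.4 and 29.5 kb in WT fibroblasts. The longest peak there measured 64.2 and 59.1 kb in Kdm6b-cKO fibroblasts and 17.9 and 18.8 kb in WT fibroblasts, with 2 and 2 peaks in Kdm6b-cKO fibroblasts and 6 and 6 in WT fibroblasts. The covered length in Kdm6b-cKO fibroblasts was thus greater and less broken. The Plch2 promoter was covered over 100% and 100% in Kdm6b-cKO fibroblasts, against 81.45% and 72.8% in WT fibroblasts, without passing (limma adjusted p = 0.0995).

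Other promoters within 100 kb of a Hes or Hey start were likewise looked at after the fact. Calls among them stand beside the 7.93% of all 6251 promoters tested that were called higher in Kdm6b-cKO fibroblasts. Whether such calls are more frequent near Hes and Hey genes was not tested. Near Heyl, the promoter of Pabpc4, a poly(A)-binding protein gene 28.8 kb downstream, was covered over 59.7% and 59.8% in Kdm6b-cKO fibroblasts, against 6.58% and 0% in WT fibroblasts (limma adjusted p = 0.026). Pabpc4 reached the 500 bp minimum only in Kdm6b-cKO fibroblasts, so it entered the test only through them and could not have been lower. Nt5c1a and Hpcal4, under the upstream domain of Heyl, were covered over 100% in all 4 libraries. Near Hes2, Tnfrsf25, 42.9 kb upstream, was covered over 84.6% and 84.3% in Kdm6b-cKO fibroblasts and 72.7% and 70.7% in WT fibroblasts (adjusted p = 0.044), a difference of 12.7 points that was −4.45 after centring. With 1 library left out, the Pabpc4 call passed only without WT replicate 7, and the Tnfrsf25 call passed in none of the 4 cases. Near Hes7, the promoter of Alox12b, a skin barrier lipoxygenase gene 36.6 kb downstream, was covered over 100% in all 4 libraries. Near Hey2, the only other gene within 100 kb, Ncoa7, was bare in all 4.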
